A study of Rattus norvegicus with 156 samples.

Results

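Proteasome subunit genes were followed through a rat model of spinal nerve injury. Members were all probe sets on 3 array types, A, B and C, annotated to a single gene whose symbol begins with Psma, Psmb, Psmc, Psmd, Psme or Psmf, a rule that uses no measured value. It found 95 probe sets of 43 genes among 26202 probe sets that were not controls, of which 18178 carried 1 gene symbol and covered 10969 genes. The immunoproteasome group held 16 probe sets of 5 genes, Psmb8, Psmb9, Psmb10, Psme1 and Psme2. The constitutive group held 76 probe sets of 36 genes and took in assembly chaperones, other activators and an inhibitor. The remaining 3 probe sets, of Psmc3ip and Psme3ip1, carry such symbols but encode interacting proteins and were counted apart. Another 6 probe sets matched several symbols and were left out, among them both probe sets of Psmb6, so that subunit is not described.

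The study compared 5 treatments in 11 tissue and side combinations, called compartments here, with at most 1 pool of RNA, from 4 to 6 rats, for each pairing. The treatments were naive rats without surgery, naive rats given gabapentin (naive with GPN), sham rats whose spinal nerves were exposed but not tied, rats with the L5 and L6 spinal nerves ligated (SNL), and ligated rats given gabapentin (SNL with GPN). Compartments were the dorsal root ganglia (DRG) of levels L4, L5 and L6, the sciatic nerve and the spinal cord, each ipsilateral and contralateral to the injury, and brain, which gave 52 pools. A pool of naive with GPN in the contralateral L5 ganglion, of naive in the contralateral L6 ganglion and of SNL in the contralateral nerve was not analysed here. Gabapentin, an analgesic used against neuropathic pain, was injected at 100 mg/kg once a day for 7 days, and tissue was taken 19 to 21 days after surgery. The L5 and L6 ganglia hold the cell bodies of the cut-off axons, whereas the L4 ganglion lies beside them with its own nerve intact. The SNL groups held only rats whose ipsilateral paw had become more sensitive to pressure, which limits them as a sample of ligated animals. The sources used here do not give strain, sex or age. Because no treatment had more than 1 pool in a compartment, both kinds of SNL pool (ligated) were set against the other pools (unligated). That is 2 against 3, except 2 against 2 in the contralateral L5 and L6 ganglia and in their differences from the ipsilateral side, and 1 against 3, with no test, in the contralateral nerve. Every p-value below measures the spread between pools of different treatments. In whole tissue, fewer cells of a type and less RNA per cell cannot be told apart.

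The proteasome is the barrel-shaped protease that degrades proteins tagged with ubiquitin. Its core is built of alpha rings, which gate the entrance, and beta rings, which hold the catalytic subunits Psmb5, Psmb6 and Psmb7. A regulatory cap of ATPase subunits (the Psmc genes) and non-ATPase subunits (most Psmd genes) recognises and unfolds the substrate. Under interferon, and constitutively in many immune cells, Psmb8, Psmb9 and Psmb10 replace Psmb5, Psmb6 and Psmb7 to form the immunoproteasome, which favours peptides that fit MHC class I molecules. Psme1 and Psme2 encode the alpha and beta subunits of an interferon-inducible activator that can cap the core in place of the regular cap. In neurons, proteasome activity is needed for synaptic and axonal protein turnover, whereas microglia and macrophages are among the cells known for the immunoproteasome.

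The promoters of the 5 immunoproteasome genes are shown because 4 of these genes, all but Psmb10, were the members that rose with ligation. Psmb8 and Psmb9 start 12 kb apart on chromosome 20 and point away from each other, and Psme1 and Psme2 start 13.8 kb apart on chromosome 15, on opposite strands, while Psmb10 lies apart on chromosome 19. The sequences below are the 250 bases before each annotated start from RefSeq (build GRCr8, 5′ to 3′ on the gene's strand), at chr20:4657032-4657281 (minus strand) for Psmb8, chr20:4668750-4668999 (plus) for Psmb9, chr19:50743293-50743542 (minus) for Psmb10, chr15:33038721-33038970 (plus) for Psme1 and chr15:33052752-33053001 (minus) for Psme2. Capitals mark matches, on either strand, to GAAANNGAAA (the core of an interferon response element) or TTCNNNGAA (the core of a gamma-activated site).
Psmb8: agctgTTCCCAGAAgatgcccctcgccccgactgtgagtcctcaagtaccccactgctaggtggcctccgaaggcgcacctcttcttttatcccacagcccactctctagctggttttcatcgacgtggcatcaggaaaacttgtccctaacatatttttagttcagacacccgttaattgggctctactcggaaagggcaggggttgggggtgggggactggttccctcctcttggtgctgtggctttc
Psmb9: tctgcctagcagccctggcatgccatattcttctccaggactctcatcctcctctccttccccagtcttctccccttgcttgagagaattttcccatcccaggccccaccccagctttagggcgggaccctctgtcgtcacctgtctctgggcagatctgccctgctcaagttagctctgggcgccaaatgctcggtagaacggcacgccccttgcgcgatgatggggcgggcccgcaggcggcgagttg
Psmb10: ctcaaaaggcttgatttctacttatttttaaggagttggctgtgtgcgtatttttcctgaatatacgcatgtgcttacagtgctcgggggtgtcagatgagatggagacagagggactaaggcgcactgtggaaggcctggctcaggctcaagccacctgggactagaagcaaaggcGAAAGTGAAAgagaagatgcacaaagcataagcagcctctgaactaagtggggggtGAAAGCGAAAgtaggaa
Psme1: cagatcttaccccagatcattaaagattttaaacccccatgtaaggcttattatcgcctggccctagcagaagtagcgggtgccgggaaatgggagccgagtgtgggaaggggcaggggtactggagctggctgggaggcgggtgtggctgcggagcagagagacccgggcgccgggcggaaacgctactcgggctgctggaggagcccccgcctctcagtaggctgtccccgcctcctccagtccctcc
Psme2: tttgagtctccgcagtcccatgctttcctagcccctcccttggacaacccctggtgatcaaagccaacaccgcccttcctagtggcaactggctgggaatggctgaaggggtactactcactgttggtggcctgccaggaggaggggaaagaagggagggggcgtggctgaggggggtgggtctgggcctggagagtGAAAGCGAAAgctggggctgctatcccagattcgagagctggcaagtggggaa
The interferon response motif had 2 matches in Psmb10, 73 and 17 bases before the start, and once in Psme2, 53 bases before it. Psmb8 held a gamma-activated motif 245 bases before its start, while Psmb9 and Psme1 held neither set of letters in this window. Of 33469 promoters of the same length, 3.41% held the first motif and 7.67% the second. Among the 39 member genes with a promoter in the table, the first motif was also in the constitutive genes Psma4, Psmb3 and Psmd7, and the second in Psmc6, Psmd3 and Psmd7. The core of the antioxidant response element, TGACNNNGC (10.1% of all promoters), was in Psma3, Psmb2, Psmb5, Psmd1, Psmd9 and Psme4 and in no immunoproteasome gene, and the CCAAT box (34% of all) was in 21 of the 39 genes. The motifs were allowed to overlap. Shares are of single promoters, whereas a gene was counted if any of its promoters matched, so the gene counts and the shares have unlike units. A match is a run of letters, not a shown binding site.

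Signals are the deposited array intensities, quantile-normalized here within each compartment; a change is the difference of mean log2(signal + pseudocount), ligated minus unligated, with pseudocounts of 5.8, 4.5 and 6.2 for arrays A, B and C. Signals of different probe sets are not compared with each other. A probe set was tested where at least 2 pools of the comparison had a deposited signal above the 40th percentile of the array; 74 of the 95 members did so in all 52 pools (8 of the 16 immunoproteasome probe sets) and 7 in fewer than 2. Array medians ran from 13 to 62.2 on A, 8.1 to 47.2 on B and 14.5 to 53.3 on C. The ratio of the 3′ to the 5′ GAPDH control, which rises as RNA breaks down, was 1.01 to 1.05 in the ligated and 1.13 to 1.26 in the unligated ipsilateral L5 pools, 7.38 in the naive ipsilateral nerve and 3.16 in the sham pool of the contralateral L4 ganglion. No neuron or Schwann cell marker gene was at 0 in any ganglion or nerve pool. That is no sign of detection, since member probe sets below the percentile in every pool also read above 0. Skeletal muscle genes summed to 15179, 9033 and 6956 in the naive, naive with GPN and sham ipsilateral nerve against 725 (SNL) and 6567 (SNL with GPN).

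In the ipsilateral L5 ganglion, immunoproteasome genes rose with ligation and part of the constitutive proteasome fell. Psmb8 rose 1.97-fold, Psme1 1.95-fold, Psmb9 1.71-fold and Psme2 1.47-fold, each on at least 1 probe set. Of 15 immunoproteasome probe sets tested, 5 rose, none fell and 10 did not pass, against 6.75% of all 16746 probe sets tested that rose; the median change of the 15 was 0.56 on the log2 scale and that of all probe sets tested was -0.0025. Of 67 constitutive probe sets tested, 11 fell, none rose and 56 did not pass, against 8.88% of all probe sets that fell, with a median of -0.24. Calls are limma's at a Benjamini-Hochberg adjusted p under 0.05 over all probe sets tested.

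Psmb8, the inducible chymotrypsin-like subunit, had signals of 27.9 (naive), 27 (naive with GPN) and 44.2 (sham) against 72.8 (SNL) and 66.3 (SNL with GPN) on array C (probe set rc_AI178629_s_at). Both ligated pools lay above all 3 others, and the means of 69.6 ± 4.6 (SD, n = 2) and 33 ± 9.7 (SD, n = 3) differed by 0.98 on the log2 scale (SE 0.22, limma adjusted p = 0.0245). The Psmb8 probe set of array A (D10729_s_at) read 70.2, 77.4 and 99.9 against 131.4 and 115.8 in the same order. It was also higher in both ligated pools, but its change of 0.56 (SE 0.17) did not pass (limma adjusted p = 0.0674). Psmb9, the inducible subunit that replaces Psmb6, read 38.5, 31.1 and 37.4 against 66 and 62.1 on array B (rc_AI012340_s_at), a change of 0.78 (SE 0.16, limma adjusted p = 0.0197). Its other 3 probe sets changed by 0.63 to 0.65 without passing, and in each of them both ligated pools lay above the unligated ones. Of these, D10757_at and rc_AI177481_s_at were above the 40th percentile in only 14 and 8 of the 52 pools. They may have entered the test through the ligated pools, so their standing apart adds no support. Psmb10, the inducible subunit that replaces Psmb7, read 50.6, 38.2 and 50.6 against 61.4 and 61 (0.38, SE 0.17, limma adjusted p = 0.175), groups that did not overlap and a change that did not pass.

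Of the activator subunits, Psme1 read 155, 127.3 and 163.9 against 340.3 and 250.9 on array B (rc_AA848487_s_at), the largest Psme1 change in this ganglion (0.96, SE 0.17, 1.95-fold, limma adjusted p = 0.0128). A probe set of array A (D45249_g_at) gave 243.5, 213.2 and 272 against 436.5 and 367.9 (0.72, SE 0.14, limma adjusted p = 0.0182). The brightest Psme1 probe set (D45249_at) disagreed: its signals of 513.4, 499.3 and 672.3 against 592.7 and 609.3 overlapped, with a change of 0.11 (SE 0.15, limma adjusted p = 0.654). Psme2 read 248.8, 275 and 303.1 against 445.9 and 368.3 on array B (rc_AI011981_g_at), a change of 0.55 (SE 0.14, limma adjusted p = 0.0372) that turned to -0.17 on the deposited signals without normalization. Its probe set on array A ranged widely among the unligated pools, from 35.9 to 118, and its change of -0.31 (SE 0.42) did not pass (limma adjusted p = 0.656). In all, 11 of the 15 immunoproteasome probe sets had both ligated pools above the 3 others, including probe sets that may have entered the test through those pools. Of 67 constitutive probe sets, 3 stood apart higher and 39 lower. The share of all probe sets standing apart was not counted, so these counts are no result about the members. Counted by the brightest probe set of each gene, 1 of 5 immunoproteasome genes, Psme2, passed.

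**Figure D1:**
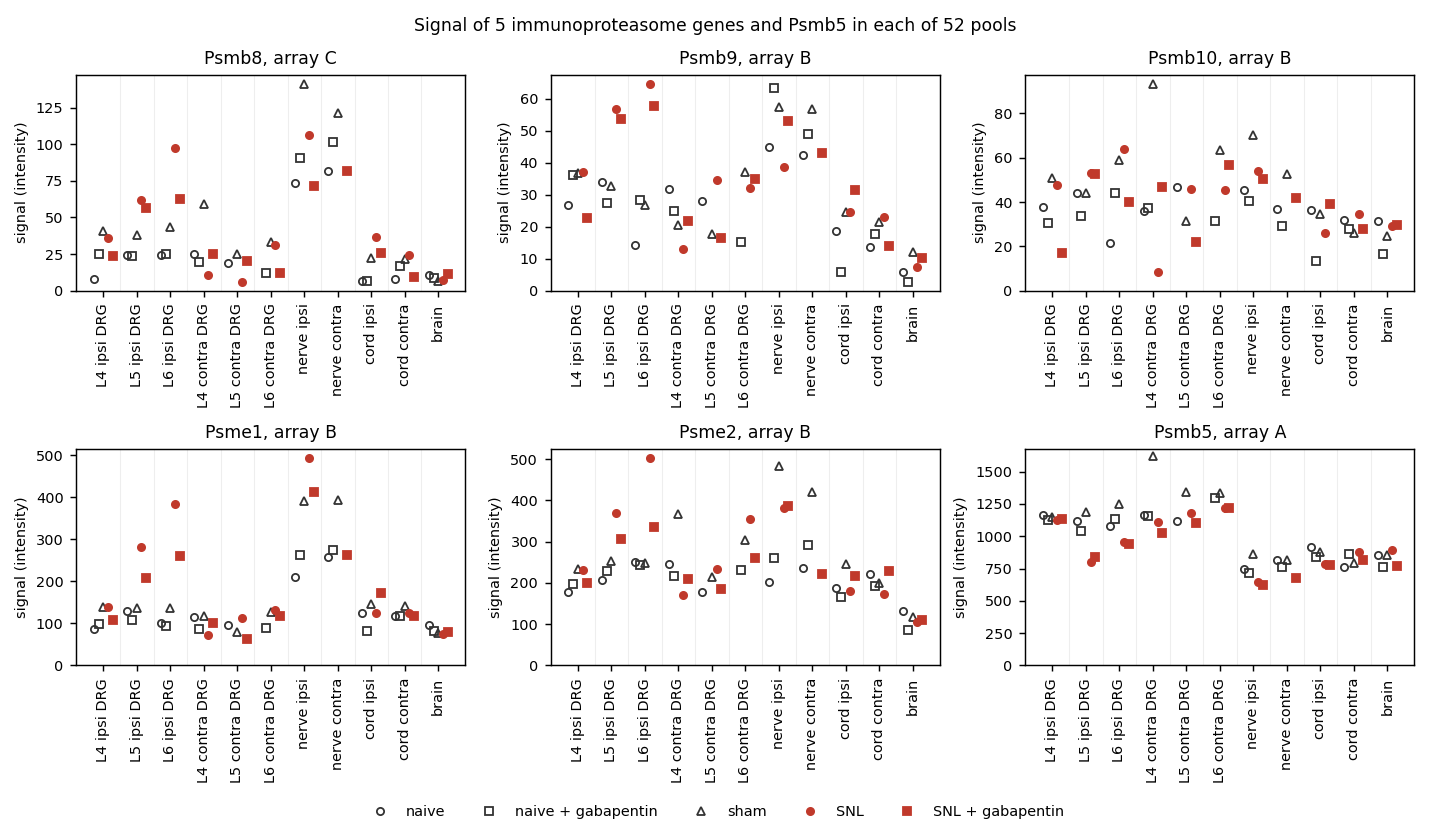
Signal (intensity, quantile-normalized over all 52 arrays of a set) of 1 probe set each of Psmb8, Psmb9, Psmb10, Psme1, Psme2 and Psmb5 in every pool, by compartment; each point is 1 pool, with the treatment shown by its symbol, and the probe sets shown were picked after their values were seen. The ligated pools stand above the unligated ones for Psmb8 and Psmb9 in the ipsilateral L5 and L6 ganglia, and Psmb5 lies lower in the nerve (mean 775.5 in its unligated ipsilateral pools) than in the L5 ganglion (1116).

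Of the 11 constitutive falls in L5, 7 lay in the regulatory cap, 3 in the beta ring and 1 in the activator gene Psme3. All 7 tested probe sets of the ATPases, the motor that unfolds substrates, were negative (median -0.41) and 3 passed. Psmc5 read 505.5, 483.6 and 581.5 in the unligated pools against 360.1 and 313.1 after ligation, with no overlap (-0.63, SE 0.13, 1.54-fold lower, limma adjusted p = 0.0189). Both Psmc2 probe sets fell, by 0.45 and 0.48 on the log2 scale (limma adjusted p = 0.0337 and 0.0302). Of the 20 non-ATPase probe sets tested, 19 were negative (median -0.39) and 4 passed. Psmd2, a scaffold of the cap's base, fell from 425.6, 399.6 and 461.2 to 252 and 318.6 (-0.59, limma adjusted p = 0.0302). Single probe sets of Psmd1, Psmd11 and Psmd6 fell by 0.47, 0.41 and 0.39. The other tested probe sets of Psmd1 and Psmd11 were negative without passing. The array C probe set of Psmd2, its brightest, moved by -0.38 without passing (limma adjusted p = 0.11). Psmd4, a ubiquitin receptor of the cap, had 4 negative probe sets of which none passed (limma adjusted p = 0.0638 for the lowest).

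In the beta ring, 3 of 13 probe sets fell (median -0.24). Psmb5, the constitutive counterpart of Psmb8, read 1333, 1246 and 1416 against 966.8 and 1010 on its brightest probe set (D45247_g_at), a fall of 1.34-fold (-0.43, SE 0.1, limma adjusted p = 0.0303). A second Psmb5 probe set fell by 0.38 (limma adjusted p = 0.0449), and the other two were negative without passing. Psmb1, a structural beta subunit, fell from 557.6, 531.5 and 588.1 to 429.4 and 417.6 (-0.39, limma adjusted p = 0.0431). Psmb7, the counterpart of Psmb10, read 693.6, 667.8 and 699.9 against 545.3 and 564.9; the groups did not overlap. Its change of -0.3 (SE 0.097) missed the threshold (limma adjusted p = 0.075). The 3 probe sets of Psmb4 lay between -0.055 and 0.08. None of the 17 tested alpha-ring probe sets passed in either direction (median -0.064). The 5 tested probe sets of the assembly chaperones Psmd5, Psmd9 and Psmd10 had a median of 0.0068. Among other activators, Psme3, which forms a nuclear cap, fell on 1 of its 2 probe sets, from 108.6, 112.4 and 109.1 to 69.7 and 83.2 (-0.5, limma adjusted p = 0.0462).

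Scaling bears on both sides of this pattern. Without further normalization the median of all probe sets in L5 shifted to -0.24, with 1 immunoproteasome probe set called higher and 18 constitutive ones lower (469 higher and 2609 lower over all probe sets, against 1130 and 1487 after normalization). With each array scaled to the same median that shift was -0.087 and the counts were 2 and 24 (653 and 2046 over all). Leaving out 1 pool lowered the counts of 5 and 11 to 3 and 1 (without naive), 1 and 2 (without naive with GPN), 4 and 1 (without sham), 0 and 0 (without SNL) and 2 and 1 (without SNL with GPN). How many of all probe sets were called in these smaller fits was not counted, so the losses are not shown to be particular to the members. Macrophage marker genes moved with the result: 13 of 14 tested rose (median 1.39). The 18 markers summed to 1650 to 2219 in the unligated and 5027 to 5166 in the ligated pools. Among them Cd14, Itgam, Cd163 and Mrc1 overlapped between the groups. Neuron markers moved the other way, with 5 of 8 tested lower and sums of 21499 to 23122 against 12685 and 14320. T cell markers summed to 220 to 251 against 282 and 353, with none of 5 tested called. Median signals on array B were 29.2, 27.4 and 25.6 in the unligated and 23 and 18.1 in the ligated pools. The part of these markers, and of the lower GAPDH ratio in the ligated pools, in the proteasome result was not tested.

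**Figure D2:**
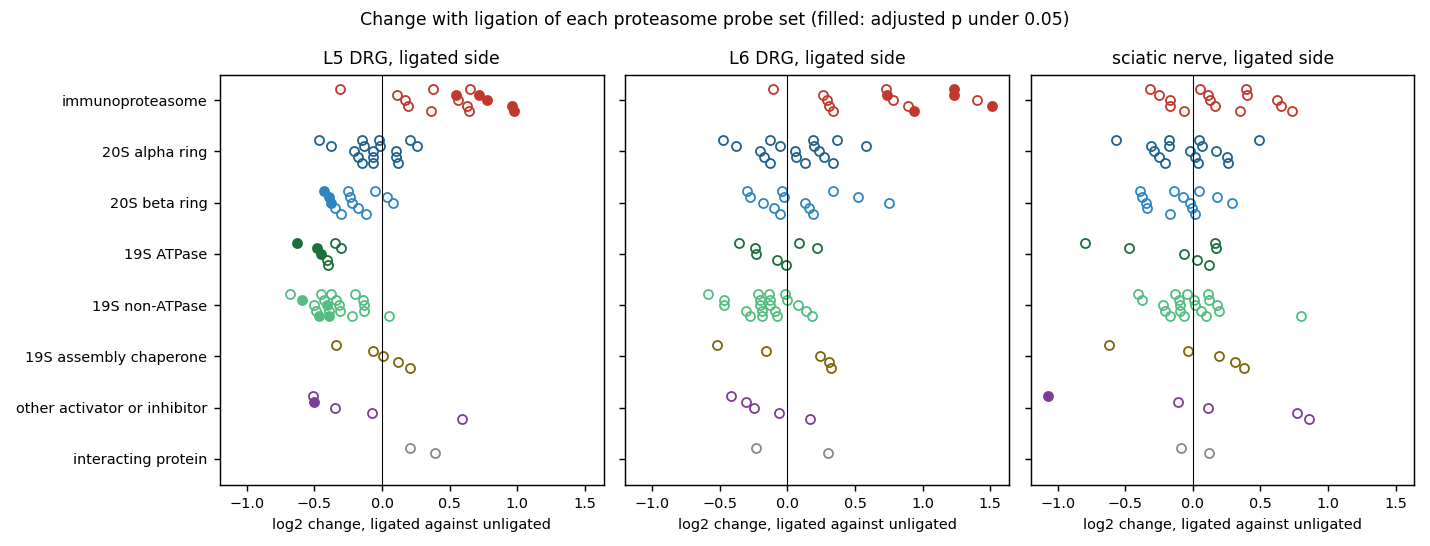
Change with ligation (log2, ligated minus unligated) of every tested member probe set in the ipsilateral L5 ganglion, L6 ganglion and nerve, grouped by the subunit's role; filled points passed an adjusted p of 0.05. In L5 the 5 filled immunoproteasome points lie right of 0 and the 11 filled constitutive points left of it, in L6 the 5 filled points are all immunoproteasome, and in the nerve the 1 filled point is Psmf1.

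In the ipsilateral L6 ganglion, whose nerve was also ligated, 5 of 14 immunoproteasome probe sets rose, while no constitutive probe set of 67 passed in either direction. The share of all 16901 probe sets that rose was 4.37%, and the share that fell 4.22%. The 14 had a median of 0.76 and the 67 one of -0.078, against -0.0041 over all probe sets tested. Psme1 changed most, from 88.1, 82.9 and 119.9 to 341.9 and 230.6 on array B (1.51, SE 0.24, 2.85-fold, limma adjusted p = 0.00944). Its array A probe set that had passed in L5 read 218.9, 227.6 and 208 against 471.5 and 380.3 (0.94, SE 0.16, limma adjusted p = 0.0143). Both ligated pools of both probe sets lay well above the unligated range. Psmb8 on array C read 21.7, 22.3 and 38.7 against 88.8 and 56.6 (1.23, SE 0.28, 2.34-fold, limma adjusted p = 0.0383). Psmb9 on array B read 13, 25.4 and 24.2 against 56.8 and 50.6 (1.23, SE 0.28, 2.35-fold, limma adjusted p = 0.0341). SNL was the higher of the ligated pools in each of these 4 probe sets.

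Psme2 passed in L6 on another probe set of array B (rc_AA851169_s_at) than in L5, with 150.5, 167.6 and 162.3 against 287.1 and 254.3 (0.74, SE 0.16, 1.67-fold, limma adjusted p = 0.0285). The one that had passed in L5 read 219.6, 214.9 and 218.7 against 449.9 and 296.2 and missed the threshold (0.73, limma adjusted p = 0.0645). Psmb8 on array A (0.89, limma adjusted p = 0.0724), Psmb9 on array C (1.4, limma adjusted p = 0.0504) and on array A (0.78, limma adjusted p = 0.0651) also missed it. The array C probe set of Psmb9 was above the 40th percentile in only 8 of the 52 pools. Psmb10 overlapped between groups (19.7, 38.9 and 51.8 against 56.2 and 35.4; 0.34, limma adjusted p = 0.634). By the brightest probe set of each gene, none of the 5 immunoproteasome genes passed in L6. The constitutive counterparts Psmb5 and Psmb7 changed by -0.28 and -0.037 (limma adjusted p = 0.272 and 0.916), and 2 Psmb4 probe sets lay at 0.75 and 0.52 (limma adjusted p = 0.0642 and 0.0772).

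The L6 count was 0 with the deposited scaling, under which the median of all probe sets was -0.28 and few probe sets of any kind passed (24 higher and 62 lower). It was 5 with equal medians (621 higher and 593 lower over all probe sets). It fell to 0 without the SNL pool, 3 without SNL with GPN, 1 without naive and 4 without naive with GPN, and reached 7 without sham. How many of all probe sets were called without each pool was not counted. Macrophage markers rose here too (13 of 15 tested, median 1.73, sums of 1383 to 1760 against 5623 and 4383). Neuron markers fell (5 of 9 tested, sums of 17605 to 19206 against 8297 and 9856), and T cell sums were 197 to 234 against 267 and 247. The part of these markers in the result was not tested.

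No member passed in the 7 other compartments tested, leaving the nerve aside, and few probe sets of any kind did. The share of all probe sets called in either direction was 0.0418% in the ipsilateral L4 ganglion, 0 in the ipsilateral cord, 0 in the contralateral L4 ganglion, 0.00612% in the contralateral L5 ganglion, 0.0729% in the contralateral L6 ganglion, 0 in the contralateral cord and 0 in the brain. Members with an unadjusted limma p under 0.05 numbered 9 in the ipsilateral L4 ganglion (3 higher, 6 lower), 1 in the ipsilateral cord, 5 in the contralateral L4, 7 in the contralateral L5 and 5 in the contralateral L6 ganglion, 2 in the contralateral cord and 1 in the brain. As shares of the members tested these were 10.7, 1.23, 5.95, 8.43, 5.95, 2.44 and 1.25%, in that order, against 14.3, 2.71, 4.01, 8.43, 10.6, 5.03 and 2.59% of all probe sets, at or below the background except in the contralateral L4 ganglion. In these compartments the immunoproteasome median ran from -0.26 (contralateral L4 ganglion) to 0.21 (ipsilateral cord). In the ipsilateral L4 ganglion, next to the ligated levels, Psme1 on array B read 86.1, 99.5 and 141.5 against 142.2 and 111.4, and Psmb8 on array C 9.78, 31.1 and 49.4 against 43.9 and 29.8; both overlapped. In the ipsilateral cord 11 of 13 immunoproteasome probe sets were positive, where the median change of all probe sets tested was 0.0043. The share of all that were positive was not counted. Psmb8 on array C read 8.67, 9.16 and 27.7 against 43.3 and 31.3 there, without passing. Its deposited signals in the unligated cord pools lay below the array medians, so it may have entered the test through the ligated pools. Macrophage and microglia markers in the cord summed to 2076 to 2748 against 3160 and 3459, a movement whose part was not tested.

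**Figure D3:**
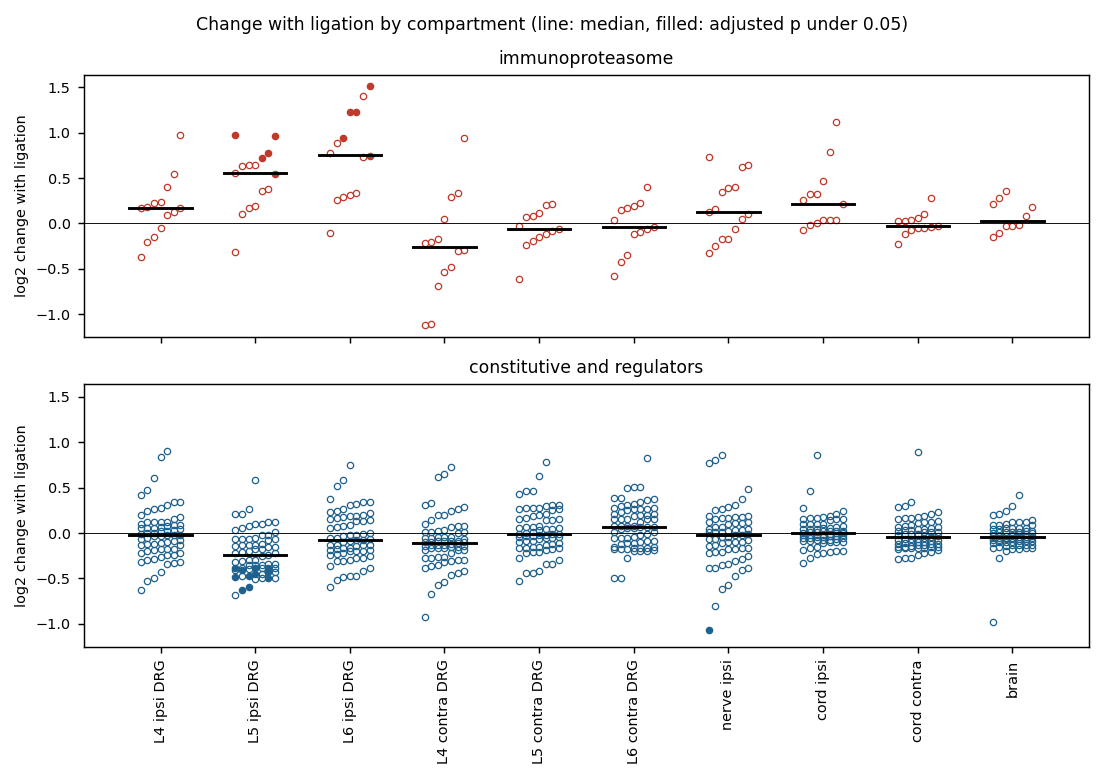
Change with ligation (log2, ligated minus unligated) of each tested probe set in the 10 compartments with 2 ligated pools, immunoproteasome above and constitutive below; lines are medians and filled points passed an adjusted p of 0.05. The immunoproteasome medians are 0.56 in the ipsilateral L5 and 0.76 in the ipsilateral L6 ganglion, and between -0.26 and 0.21 in the other compartments.

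Tests of the difference between compartments, on the within-treatment difference of log2 values, called 4 member probe sets. Counted in either direction, members were called no more often than all probe sets in the same comparisons. The rise of Psme1 (D45249_g_at) in L6 exceeded that on the contralateral side by 1.36 (SE 0.23, limma adjusted p = 0.0242). The contralateral signals were 278.1 (naive with GPN) and 256.8 (sham) against 211.2 (SNL) and 187.1 (SNL with GPN), and 0.87% of all probe sets were called higher. Psme1 on array B (rc_AA848487_s_at) rose more in L6 than in L4, by 1.28 (SE 0.21, limma adjusted p = 0.0268), in a comparison that called 0.649% of all probe sets higher. Between L5 and L4, Psme4, a nuclear activator, differed by 1.22 on array C (SE 0.22, limma adjusted p = 0.0297) and Psmd4 on array C by -0.75 (SE 0.16, limma adjusted p = 0.0486), where 1.23% of all probe sets were called higher and 1.92% lower.

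In L4 the groups stood apart for both of these array C probe sets, whereas in L5 they stood apart for Psme4 and overlapped for Psmd4. Psme4 read 109.3, 150 and 148.8 against 96.8 and 74.5 in L4 and 94, 151.6 and 105.4 against 170.6 and 181.6 in L5, where its own change of 0.59 did not pass (limma adjusted p = 0.0877). Psmd4, the ubiquitin receptor, read 113.7, 120 and 120.5 against 182.3 and 184 in L4, and 115.9, 129.2 and 138.8 against 113 and 117.6 in L5. Array C medians in L4 were 18, 25.7 and 25.6 in the unligated and 53.3 and 51.8 in the ligated pools, and the part of that split was not tested. Each of the 4 calls was lost without some pools: the L6 side difference without SNL or without SNL with GPN, the L6 minus L4 difference without any pool except sham, the Psme4 difference without any pool except SNL, and the Psmd4 difference without any pool. With the deposited scaling both L6 calls were lost, and L5 minus L4 gave 14 calls, where calls over all probe sets were not counted.

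No member passed for L5 ipsilateral minus contralateral, where 0.724% of all probe sets did, for L6 minus L5 (0.0286%), nerve minus L5 (3.13%), cord minus L5 (1.8%) or ipsilateral minus contralateral cord (0). Unadjusted limma p-values under 0.05 were reached by 17, 12, 6, 16 and 3 members, which are 20, 14.3, 7.14, 19 and 3.66% of those tested against 18.2, 8.42, 18, 18.6 and 5.12% of all probe sets. The L5 rise of the immunoproteasome is therefore not shown to differ from that in L6, in the nerve or in the cord, nor from the contralateral side. Nor is it shown to differ from the change in L4, where no immunoproteasome probe set passed the test of the difference (median 0.39, 12 of 15 positive). The median immunoproteasome difference was 0.49 for L5 ipsilateral minus contralateral (14 of 15 positive) and -0.31 for the constitutive probe sets (54 of 68 negative), against -0.018 over all probe sets tested. For nerve minus L5 the immunoproteasome median was -0.33 (12 of 15 negative) and the constitutive one 0.19.

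In the ipsilateral sciatic nerve 1 of 83 member probe sets passed, Psmf1, which encodes an inhibitor of the core particle. It read 134.3 (naive), 186.6 (naive with GPN) and 112.8 (sham) against 66 (SNL) and 64.2 (SNL with GPN) on array B (rc_AI045972_at), and the ligated mean of 65.1 ± 1.29 (SD, n = 2) was 2.1-fold below the unligated 144.6 ± 38 (SD, n = 3; -1.07, SE 0.24, limma adjusted p = 0.0481). On the contralateral side, with 1 ligated pool and hence no test, it read 99, 114.9 and 101.8 against 132.8. Of all probe sets tested in the nerve, 2.62% fell and 2.25% rose. Immunoproteasome genes did not pass: their median was 0.13, with 10 of 15 probe sets positive. Psmb8 on array A read 85.3, 90 and 144.3 against 126.9 and 102.1 and on array C 59.3, 75 and 117.7 against 87.7 and 57.6; the sham pool was the highest in both, and the groups overlapped. Psme1 on array B read 157.1, 193.2 and 280.8 against 339.2 and 296, a change of 0.62 that did not pass (limma adjusted p = 0.239). Psmb5 and Psmb7 changed by -0.34 and -0.38 (limma adjusted p = 0.335 and 0.288).

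The Psmf1 call in the nerve was lost with the deposited scaling, with 1 normalization over all 52 arrays, with no filter, with gabapentin as a covariate and without any 1 pool except sham, which gave 2 calls. The muscle sums given above, the GAPDH ratio (7.38, 1.6 and 3.8 in the unligated against 1.92 and 1.61 in the ligated pools) and the macrophage sums (1780, 2296 and 3611 against 5319 and 5210) differed between these pools; their part was not tested.

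Other genes of the same pathways were counted from lists, to be read against the shares of all probe sets that rose (6.75% in L5, 4.37% in L6 and 2.25% in the nerve) or fell (8.88% in L5). Of 15 interferon response genes tested in L5, 6 rose and 1 fell, the largest rises being the guanylate-binding protein gene Gbp2 (1.7), the antiviral gene Mx2 (1.33), Ifitm3 (1.16) and the transcription factor gene Irf8 (1.13), whereas Stat2 fell by 0.53. In L6, 5 of 15 rose, with Gbp2 at 2.02, Mx2 at 1.92, Ifitm3 at 1.28 and Irf8 at 1.23, and in the nerve 3 of 16 rose, Gbp2 (1.85), Cxcl10 (1.67) and Irf8 (0.94). Of the MHC class I presentation genes, 2 of 13 rose in L5, RT1-A1 (0.64) and RT1-CE5 (0.4), 1 of 14 in L6, RT1-T24-4 (0.68), and 0 of 13 in the nerve, so that the L6 and nerve counts lay near the background. Of 20 ubiquitin genes and shuttles, 4 fell in L5: Fbxo2 (-1.12), a neuronal ubiquitin ligase component, the shuttles Ubqln2 (-0.85) and Ubqln1 (-0.52), and Vcp (-0.44), an ATPase that extracts ubiquitinated proteins. None passed in L6 or the nerve. Of 13 assembly factors and regulators, 1 fell in L5, the core assembly chaperone Psmg2 (-0.88, limma adjusted p = 0.0293), a count near the background, and none passed in L6 or the nerve.

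Gabapentin, tested with ligation as a covariate, changed no member in the ipsilateral L5 ganglion, L6 ganglion, nerve or cord or in the mean over the 8 compartments with all 5 pools, and the share of all probe sets called was 0 in each of the 5 fits. The smallest limma adjusted p of any member was 0.99. At an unadjusted limma p under 0.05, 5 members were lower and none higher in L5, 1 was lower in L6, and 2, 4 and 3 in all differed in the nerve, the cord and the mean. These are 5.95, 1.2, 2.41, 4.94 and 3.41% of the members tested, against 3.77, 3.27, 2.76, 3.12 and 2.52% of all probe sets. The direction of the immunoproteasome estimates leaned downward: 13 of 15 were negative in L5 (median -0.24, against -0.0068 for constitutive probe sets and 0.0086 for all), 11 of 14 in L6 (-0.11), 11 of 15 in the nerve (-0.1), 9 of 13 in the cord (-0.2) and 12 of 15 in the mean (-0.15). Psme1 on array B, for example, read 127.3 in the naive pool with GPN against 155 in the naive pool, and 250.9 in the SNL pool with GPN against 340.3 in the SNL pool of L5 (-0.36, SE 0.12, limma adjusted p = 0.99). These probe sets share their pools and are not independent of each other. The share of all probe sets with a negative estimate was not counted, though their median in L5 was 0.0086. With 1 pool of each treatment in a compartment, the lean was not tested as a gabapentin effect on the group.

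Sham and naive rats had 1 pool each per compartment, so only values can be given. In the ipsilateral nerve 13 of 15 immunoproteasome probe sets were higher in the sham pool (median log2 difference 0.72, against 0.12 for constitutive probe sets, with 50% of all probe sets higher), and in the contralateral nerve 14 of 14 (0.62 against 0.032, with 52.1% of all higher). Psmb9 on array A (D10757_g_at), set on the scale shared by all 52 arrays, read 140.2 in the sham and 57.7 in the naive ipsilateral nerve. In the ganglia and cord the median lay between 0.11 and 0.42, and in the brain it was -0.22 with 2 of 10 higher in sham. Macrophage sums in the nerve were 3611 in the sham and 1780 in the naive pool on the ipsilateral side and 4210 and 2496 on the contralateral side, and the GAPDH ratio was 3.8 against 7.38 and 3.2 against 2.07.

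Among unligated pools the tissues differed in the signals of proteasome genes. All 52 arrays of a set were put on 1 scale here, with 3 pools a tissue. The direction of the immunoproteasome median between nerve and ganglion depended on that scale, as given below. The nerve had more immunoproteasome and less constitutive proteasome signal than the L5 ganglion: 6 of 14 immunoproteasome probe sets were higher and none lower, and 29 of 68 constitutive ones were lower and 1, Psmf1, higher, where 18.8% of all probe sets were higher and 18% lower. Medians were 0.72 and -0.45 against 0.028 over all probe sets tested. Psmb8 on array C read 73.4, 90.7 and 140.9 (naive, naive with GPN, sham) in the nerve against 24.3, 23.5 and 38.2 in the ganglion, 3.04-fold higher (1.6, SE 0.32, limma adjusted p = 0.00148). Psme1 (D45249_g_at) read 348.3, 428.4 and 596.4 against 203.9, 177.9 and 228.2 (1.12, SE 0.2, limma adjusted p = 0.000499). In both, every nerve pool lay above every ganglion pool. Psmb9 on array A (D10757_g_at, 1.25), Psmb8 on array A (0.93), Psme1 on array B (1.13) and Psme2 on array B (rc_AA851169_s_at, 0.74) were also higher, while the brightest Psme2 probe set (0.36, limma adjusted p = 0.332), Psmb10 (0.3, limma adjusted p = 0.499) and the brightest Psme1 probe set (-0.2, limma adjusted p = 0.408) did not pass.

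The constitutive falls from ganglion to nerve reached 2.93-fold. Psmc2 (U13895_s_at) read 60, 95 and 58.6 in the nerve against 215.6, 209.2 and 218.8 in the ganglion (-1.55, SE 0.18, limma adjusted p = 1.49e-05). Its brighter probe set fell less (-0.74, limma adjusted p = 0.00244). Psmb5 on array A (D45247_at) read 303.5, 349.1 and 320.8 against 674.8, 691.1 and 710.8 (-1.08, SE 0.13, limma adjusted p = 2e-05), and its 3 other probe sets were lower as well, by 0.52 to 1.13. Neither gene's groups came near each other. The brightest probe sets of Psme3 (-1.13), Psmd6 (-1.06), Psmd2 (-0.97), Psmb7 (-0.63) and Psmd1 (-0.52) were lower too, although a second Psme3 probe set did not pass (-0.23, limma adjusted p = 0.359). Psma6, a subunit of the alpha ring, was split: both array C probe sets were lower (-0.9 and -0.78), but its brightest, on array A, overlapped between the tissues (-0.16, limma adjusted p = 0.458). Neuron markers summed to 639 to 895 in the nerve and 18821 to 20306 in the ganglion, macrophage markers to 2295, 2896 and 4405 against 1392 to 1863, and muscle markers to 7543 to 17151 against 824 to 3801. The GAPDH ratio was 7.38, 1.6 and 3.8 in the nerve against 1.25, 1.13 and 1.26 in the ganglion; the part of these differences was not tested. With the deposited scaling the median of all probe sets was -0.75 (773 higher and 9629 lower, against 3578 and 3429 after normalization), 65 constitutive probe sets were lower, 1 immunoproteasome probe set was higher and 3 were lower, and the immunoproteasome median turned to -0.16, Psme2 to -0.37 and Psmf1 to -0.44. With equal medians the counts were 23 lower, 5 higher and 0 lower (3760 higher and 3146 lower over all probe sets).

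**Figure D4:**
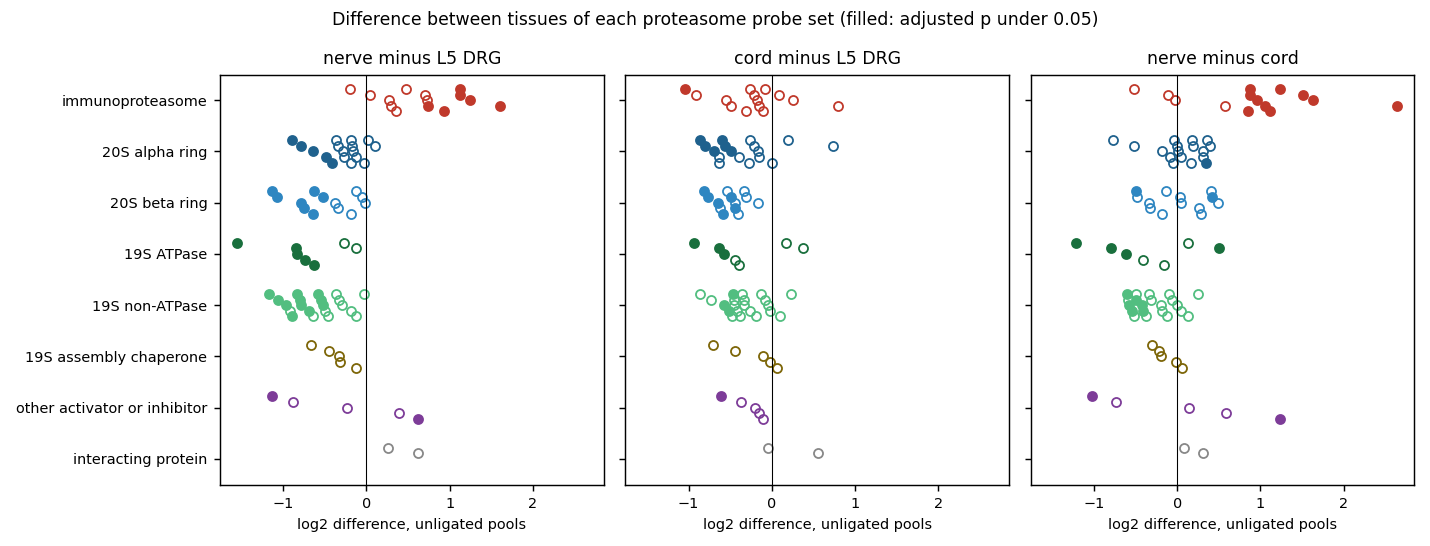
Difference between tissues (log2, unligated pools, 3 against 3) of every tested member probe set, grouped by the subunit's role, for the contrasts named above each panel; filled points passed an adjusted p of 0.05. In nerve minus L5 ganglion the immunoproteasome median is 0.72 (-0.16 on the deposited signals) and the constitutive one -0.45, and in nerve minus cord the immunoproteasome median is 0.91.

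The spinal cord had less constitutive proteasome signal than the L5 ganglion, with 19 of 68 probe sets lower and none higher (median -0.41), where 12% of all probe sets were lower and 10.1% higher. Psmb3, a structural beta subunit, read 289.6, 262.7 and 235.6 in the cord against 475.2, 480.1 and 443.1 in the ganglion (-0.82, SE 0.13, limma adjusted p = 0.000451). Its second probe set did not pass (-0.31, limma adjusted p = 0.119). The brightest probe sets of Psmb1 (-0.77), Psmf1 (-0.61), Psmc2 (-0.58), Psma5 (-0.56) and Psmb7 (-0.49) were lower too, with larger falls on dimmer probe sets of Psmc2 (-0.93) and Psma5 (-0.8). Of the Psma6 probe sets 1 was lower (-0.86, array C), while the brightest overlapped between the tissues (-0.17, limma adjusted p = 0.464). Of the immunoproteasome, 1 of 14 passed: Psmb8 on array C was lower in the cord, at 6.37, 6.75 and 22.3 against 24.3, 23.5 and 38.2 (-1.04, SE 0.32, limma adjusted p = 0.0347). Its brighter array A probe set overlapped (-0.18, limma adjusted p = 0.632). Neuron markers summed to 10655 to 11914 in the cord against 18821 to 20306 in the ganglion and macrophage markers to 2106 to 2772 against 1392 to 1863, and their part was not tested. The 20 lower calls became 4 without the naive pools, 7 without the naive pools with GPN and 15 without the sham pools, where calls over all probe sets were not counted. With the deposited scaling and with equal medians 30 and 35 constitutive probe sets were lower, where all probe sets split 1006 higher to 2279 lower and 1289 to 2927, against 1930 to 2284.

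Between nerve and cord, 10 of 14 immunoproteasome probe sets were higher in the nerve (median 0.91), where 19.9% of all probe sets were higher and 19.5% lower. The largest was Psmb8 on array C, 6.25-fold higher (2.64, SE 0.32, limma adjusted p = 2.02e-05). Its deposited cord signals were 10.3, 12.7 and 20.2, where the array medians were 39.8, 45.2 and 25.6. The size of this fold therefore rests on signals near the floor. The brighter array A probe set of Psmb8 differed less, and its tissue means are given below. Psmb9 on array B was higher by 1.63 (limma adjusted p = 0.00291), and Psmb10 read 45.5, 40.4 and 70.1 against 36.3, 13.2 and 34.8 (0.85, limma adjusted p = 0.0471). That difference turned to -0.077 on the deposited signals, where 2 immunoproteasome probe sets were higher and 2 lower. Psmf1 stood 2.35-fold above the cord (179.5, 251.4 and 151.2 against 70.7, 81.1 and 83.6; limma adjusted p = 7.83e-05). Psmc5 was 2.32-fold lower in the nerve (211.5, 219.5 and 295.6 against 588.9, 512.8 and 592.9; limma adjusted p = 1.27e-05), and Psmc1 (-0.8) and the brightest Psme3 probe set (-1.02) were lower as well, while the other Psme3 probe set overlapped (0.14, limma adjusted p = 0.586). Neuron markers summed to 639 to 895 in the nerve against 10655 to 11914 in the cord and muscle markers to 7543 to 17151 against 488 to 727, and the GAPDH ratio in the cord was 1.17 to 1.36; their part was not tested. The constitutive genes as a group had no settled direction here: 4 probe sets were higher and 11 lower, both smaller shares than those of all probe sets. The counts were 0 and 34 with the deposited scaling (1267 and 9396 of all probe sets, whose median was -0.73) and 17 and 2 with equal medians (4661 and 2757 of all, median 0.11). Without naive or without sham pools 6 were lower.

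Brain and cord differed least. None of 14 immunoproteasome probe sets passed, although 13 were lower in brain (median -0.39), and 5 constitutive ones were lower, Psme4 (-1.07), Psmf1 (-0.65), Psmc5 (-0.6), Psmc1 (-0.48) and Psma2 (-0.41), where 6.92% of all probe sets were lower and 6.77% higher. As a share of the constitutive probe sets tested, the 5 lay near the background. The Psme4 and Psma2 calls came from dimmer probe sets; the brightest of each did not pass (-0.45 for Psme4, limma adjusted p = 0.331, and -0.08 for Psma2, limma adjusted p = 0.794). These 5 calls became 0 without naive or without naive with GPN pools, 1 without sham pools, 2 with the deposited scaling and 0 with equal medians, where calls over all probe sets were not counted.

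After normalization over all 52 arrays, Psmf1 signal in the unligated pools was highest in the nerve on both sides, followed by the ganglia, the cord and the brain. On the deposited signals that order of nerve and ganglion did not hold: Psmf1 read 100.6, 182.8 and 102.3 in the ipsilateral nerve against 201.8, 143.5 and 167.9 in the L5 ganglion. Its normalized mean was 194 ± 51.6 (SD, n = 3) in the ipsilateral and 158 ± 12.1 (SD, n = 3) in the contralateral nerve, 102.6 to 121.6 in the ganglia, 78.5 ± 6.83 and 79.4 ± 15.2 (SD, n = 3 each) in the cord and 48.4 ± 5.43 (SD, n = 3) in the brain. Psmb8 on array A averaged 140.3 ± 41.4 and 138.2 ± 49.6 (SD, n = 3 each) in the nerves, 52.8 to 69.5 in the ganglia, 61.4 and 66.1 in the cord and 52.3 ± 11 (SD, n = 3) in the brain, so that outside the nerve the ranges of its tissues overlapped. Psmb5 (D45247_g_at) stood at 775.5 to 878.6 in nerve, cord and brain and at 1116 to 1315 in the ganglia.

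Within compartments, the median pair of immunoproteasome genes varied together more than the median pair of constitutive ones, although the constitutive pairs ranged more widely. Over the 52 pools, after each compartment's mean was subtracted, pairs of the 5 immunoproteasome genes, each by its brightest probe set, had a median correlation of 0.41 (from -0.26 to 0.68), against 0.11 (from -0.61 to 0.86) for pairs of the 36 constitutive genes and -0.0075 for mixed pairs. With other genes the medians were 0.0094 for immunoproteasome and 0.013 for constitutive genes. Over the 31 unligated pools alone the medians were 0.51, 0.056 and 0.11. Genes of a pool share its arrays, and pools share treatments, so these values describe the samples and carry no test.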

How the data were processed

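RNA from 52 pools was hybridised to 3 array types (A, B and C), 156 arrays in all. The deposited values are linear signal intensities, 1 per probe set, made by the authors with MAS5, per the submitters' processing notes; the sources used here do not give their scaling. Precision is limited by how few pools there were. Of 26379 probe sets, 177 controls were left out; 18178 had 1 gene symbol, 391 several and 7633 none in the platform annotation, and 18122 symbols were updated through their gene identifiers. Arrays of each type were quantile-normalized within a compartment (over all 52 pools for tissues), and log2(signal + pseudocount) was taken, the pseudocount being the 20th percentile of the set. Log2 changes were tested, two-sided, with limma 3.58.1 in R 4.3.3 (lmFit and eBayes with a trend, Benjamini-Hochberg adjustment over all probe sets kept, threshold 0.05), after keeping probe sets above the 40th percentile of their array in at least 2 samples. Differences between compartments were tested on within-treatment differences, and gabapentin with ligation as a covariate. Tissues were compared over the 12 unligated pools of L5 ganglion, nerve, cord and brain. Nothing in the labels says whether the pools of different compartments came from the same rats. The fit was tested on simulated data.

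Named were the immunoproteasome genes, their counterparts Psmb5 and Psmb7, other members past the threshold (up to 8 rises and 8 falls a comparison), and up to 4 members of each pathway list past the threshold. The brightest probe set on average stood for a gene, with others given where they disagreed. The planned naming of the highest and lowest levels was dropped, since signals of different probe sets cannot be compared. The members and lists were chosen with earlier results of these data known, so no list is independent evidence. Alternatives covered the scaling, the filter, the pseudocount, the spread, a gabapentin or treatment term, the contralateral side and leaving out each pool.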

Additional observations from a re-analysis of the deposited data

Results flagged for a closer look

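The change with ligation differed between compartments, by a test of the difference itself, for 4 member probe sets. For Psme1 (D45249_g_at), an interferon-inducible activator subunit, it was 1.36 higher on the log2 scale in the ipsilateral than in the contralateral L6 ganglion. For Psme1 on array B (rc_AA848487_s_at) it was 1.28 higher in the ipsilateral L6 than in the ipsilateral L4 ganglion. For Psme4 on array C it was 1.22 higher in the ipsilateral L5 than in the L4 ganglion, and for Psmd4 on array C it was lower there, with a difference of -0.75. Both of the last 2 lie on arrays whose median signal in L4 was 18 to 25.7 in the unligated and 51.8 to 53.3 in the ligated pools, and the part of that gap was not tested. Counted in either direction, 1 of 85 members was called for the L6 side difference, 1 of 85 for L6 minus L4 and 2 of 85 for L5 minus L4. The shares of all probe sets were 2.39, 1.68 and 3.15%, so members were called no more often. Each call was lost when some pools were left out, and both Psme1 calls with the deposited scaling.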

How the results depend on the processing

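No paired analysis was possible because, between ligated and unligated pools, the labels give no replicate numbers that pair them. Between tissues, treatment as a block gave 31 constitutive calls lower for nerve minus ganglion, 26 calls lower for cord minus ganglion and 6 for brain minus cord. Of the values for single probe sets under the alternatives, 682 kept direction and side of the threshold, 260 lost the call, 6 gained it and 10 reversed; the cause was not tested. Unless said otherwise, values are counts of called member probe sets. For most alternatives calls over all probe sets were not counted, so these values show how the member counts moved and are no result about the members.

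With the deposited scaling the counts were 4 (ipsilateral L4), 1 immunoproteasome and 18 constitutive (L5), 0 immunoproteasome (L6), 0 (nerve), 2 (contralateral L6), 0 (L6 side difference), 14 (L5 minus L4), 0 (L6 minus L4) and 2 (nerve minus L5). Over all probe sets, 469 were higher and 2609 lower in L5 and 24 and 62 in L6, and the other comparisons of this list had no such count. Between tissues they were 1 immunoproteasome and 65 constitutive (nerve minus ganglion), 31 (cord minus ganglion), 2 and 34 (nerve minus cord) and 2 (brain minus cord). With equal medians they were 1 (ipsilateral L4), 2 and 24 (L5), 36 (cord minus ganglion), 2 constitutive (nerve minus cord) and 0 (brain minus cord). Without a filter they were 3 and 6 (L5), 3 (L6) and 0 (nerve). With 1 spread for all compartments they were 2 and 7 (L5), 2 constitutive (L6) and 5 (nerve), and with gabapentin as a covariate 2 constitutive (L5), 3 (L6) and 0 (nerve). Normalization over all 52 arrays gave 0 in the nerve. For nerve minus cord, the treatment block gave 17 and the contralateral side 19 constitutive calls lower.

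Leaving out 1 pool gave 0 to 4 immunoproteasome and 0 to 2 constitutive calls in L5, 0 to 7 and 0 to 1 in L6, 0 to 2 in the nerve, and 0 to 1 for each of the L6 side difference, L5 minus L4 and L6 minus L4. Between tissues it gave 4 to 15 (cord minus ganglion), 6 to 8 constitutive (nerve minus cord) and 0 to 1 (brain minus cord). Calls over all probe sets were not counted in the fits without a pool, so these ranges are not shown to be particular to the members.

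Log2 values that reversed with the deposited scaling were the brightest Psme1 probe set at -0.083 in L5 and -0.13 in L6, Psme2 at -0.17 in L5 and -0.37 in nerve minus ganglion, Psmf1 at -0.44 there, and Psmb10 at -0.077 in nerve minus cord. With equal medians the brightest Psme1 probe set was at -0.14 in L5, and Psmd11 and Psmd2 at 0.069 and 0.036 in nerve minus cord. With the contralateral side Psmc3 was at -0.018 in nerve minus cord.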
